A study of Mus musculus with 24 samples.

Results

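The miRNAs described here are the mouse miRNAs mmu-miR-199a-3p, mmu-miR-199a-5p, mmu-miR-199b-5p, mmu-miR-214-3p and mmu-miR-214-5p, written without the species prefix from here on, 5 of the 1009 miRNAs listed in the deposited values. They were taken by name. No measured value entered this rule, although results of these data were known when it was set. All 5 passed the filter on low values that left 544 miRNAs to be tested. The tissue was whole mammary gland of C57BL/6 females, an inbred strain. Small RNA of 24 mice had been sequenced, each mouse as its own library, and the mice belong to 4 stages with 6 in each. Mice of the first stage were adults of 10 weeks of age (W10). The next groups were taken at day 18 of pregnancy (P18) and at lactation day 7 (Lac7). The last was taken at involution day 3 (Inv3), involution being the regression of the gland after milk removal stops. The labels give no treatment or altered gene for any mouse, and ages are given for W10 only. Mice carry the numbers 1 to 6, except that the sixth W10 mouse is number 7. For lactation and involution the design text of the series exchanges the days, and the days of the library labels are used here.

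miRNAs are short RNAs that lower the output of mRNAs carrying a match to their seed, the bases 2 to 8 counted from the 5′ end. A precursor hairpin is cut into a duplex, whose strands are named 5p and 3p after the arm they come from, and usually 1 strand is kept more often than the other. miR-199 and miR-214 are known from mesenchymal cells such as fibroblasts and from fibrotic tissue, and a long non-coding RNA, Dnm3os, is the host of the precursors of miR-199a and miR-214 on chromosome 1. In the mammary gland, fibroblasts, fat cells, vessels and immune cells surround the epithelium, which expands in pregnancy, secretes milk in lactation and dies back in involution. The files hold miRNAs and no mRNA, so the fibroblast markers that would check the cells behind these miRNAs were not measured. In whole homogenates, fewer cells of a type and less RNA per cell cannot be told apart.

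The mature sequences are shown first, since they decide which precursors a read can be assigned to. They are from RefSeq (GRCm38.p6), are written 5′ to 3′, and carry the seed in capitals. The table had a mature entry for 4 of the 5 members, not for miR-199b-5p. The last line is the 3p arm of the Mir199b precursor, which has no value of its own in the files.
miR-199a-3p: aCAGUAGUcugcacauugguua
miR-199a-5p: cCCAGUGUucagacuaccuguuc
miR-214-3p: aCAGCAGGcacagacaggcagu
miR-214-5p: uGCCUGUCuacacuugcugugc
miR-199b-3p: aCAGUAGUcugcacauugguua

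miR-199b-3p has the same 22 bases as miR-199a-3p. A read of this sequence can come from any of 3 precursors, and the value named miR-199a-3p cannot be split among them. miR-199a-5p is likewise produced by 2 precursors, Mir199a-1 and Mir199a-2, with the same sequence. Only miR-199b-5p among the miR-199 values is assigned to the Mir199b precursor alone. The seeds CAGUAGU of miR-199a-3p and CAGCAGG of miR-214-3p had the same base at 5 of 7 positions, and the first 4 bases of both miRNAs were the same. Over all 22 positions, 8 bases were the same. The seed CAGCAGG was found in 1 other mature entry, miR-761, and the seed CAGUAGU in miR-199b-3p. Neither has a value in the files. The seeds CCAGUGU and GCCUGUC of the 5p arms were in no other entry. The Mir199b hairpin printed next also holds CCAGUGU, from its base 27 on, in the arm that gives miR-199b-5p, so a mature entry missing from the table does not mean that the seed is unshared.

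The hairpins below, also from RefSeq, carry their mature arms in capitals as far as the table has an entry for them. They show which arms are cut from 1 hairpin. Arms are compared as ratios further on, where miR-199a-3p can also hold reads of Mir199b.
Mir199a-2: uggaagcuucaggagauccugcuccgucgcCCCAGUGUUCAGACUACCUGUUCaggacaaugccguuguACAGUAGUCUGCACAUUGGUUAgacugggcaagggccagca
Mir214: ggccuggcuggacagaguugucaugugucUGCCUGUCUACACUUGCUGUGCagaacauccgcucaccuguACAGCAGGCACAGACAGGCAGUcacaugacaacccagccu
Mir199b: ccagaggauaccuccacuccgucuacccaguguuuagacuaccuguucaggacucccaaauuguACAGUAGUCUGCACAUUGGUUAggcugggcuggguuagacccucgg

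All precursors lay inside genes of dynamins, GTPases that cut vesicles from membranes, on the strand opposite to them (GENCODE, GRCm38). Mir199a-2 (chr1:162217814-162217923, plus strand) and Mir214 (chr1:162223368-162223477, plus strand) were 5.44 kb apart. Both lie within Dnm3os (chr1:162217623-162225550, plus strand), annotated as an antisense non-coding gene, which itself lies within Dnm3 (chr1:161982453-162478034, minus strand). An exon covers the whole precursor in 2 Dnm3os transcripts for each of them. Mir199b (chr2:32318460-32318569, plus strand) lies within Dnm1 (chr2:32308471-32353338, minus strand). Mir199a-1 (chr9:21496495-21496564, minus strand) lies within Dnm2 (chr9:21424908-21507759, plus strand). No annotated exon of a dynamin gene overlaps any of the 4 precursors. Of the other listed miRNAs, only miR-3154 has a precursor within 10 kb of them. It lies 116 bases from Mir199b on the same strand and had 1 read in 1 W10 library and 0 in the other 23 libraries.

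Since miR-199a and miR-214 share Dnm3os as a host, the sequence around its start is shown, 250 bases before and 50 after the annotated start (RefSeq, chr1:162217373-162217672, plus strand). The capitals mark a match to the CArG box, the motif bound by serum response factor, which was searched for after the sequence had been read.
Dnm3os promoter: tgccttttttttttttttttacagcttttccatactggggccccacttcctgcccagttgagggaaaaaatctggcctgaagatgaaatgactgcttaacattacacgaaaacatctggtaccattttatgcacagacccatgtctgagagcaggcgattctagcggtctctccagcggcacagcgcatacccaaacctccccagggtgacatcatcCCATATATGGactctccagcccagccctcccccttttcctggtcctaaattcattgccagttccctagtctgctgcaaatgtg

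This window holds 1 CArG box, a motif present in 1.63% of 32851 promoters of the same length. The motif CANNTG, the E-box bound by Twist and other helix-loop-helix factors, occurs 3 times in it and at least once in 72.3% of the promoters. Both motifs read the same on either strand and do not overlap here. These matches describe the letters only, and binding was not measured.

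Values are given as RPM, the reads of a miRNA per 1e6 reads counted on all listed miRNAs, so a member's value also depends on how many reads all other miRNAs take. Libraries held 660346 to 1165321 reads, with medians of 967413 at W10 and 693166 at Lac7, the stage with the fewest. Thus 1 read was worth 0.858 to 1.51 RPM. How well a sequence is captured during library making differs between miRNAs, so levels of different members are not numbers of molecules. Stage comparisons used limma on log2(RPM + 1), with p-values adjusted by Benjamini-Hochberg over the 544 miRNAs. To be called, a miRNA needed an adjusted p under 0.05 and a log2 fold change of 1 or more in either direction. Scaling by DESeq2 size factors in place of the library total shifted the median over the 544 miRNAs from -0.32 to -0.12 for P18 against W10 and from -0.66 to -0.31 for Lac7 against W10, so the members' differences are given beside this median. The sources give 6 mice per stage and do not say whether mice shared a litter or day, and the p-values cover the spread between these mice.

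miR-199a-3p was among the most abundant miRNAs of the gland, at rank 5 of 1009 by its mean over the 24 libraries. At W10 it ranged from 69335.5 to 101844 RPM with a median of 79235 RPM, and at P18 from 45093 to 57854 RPM with a median of 51311 RPM. Lac7 mice had 15993 to 22734 RPM (median 20869 RPM), and Inv3 mice had 39372 to 61683 RPM (median 47090.5 RPM). W10 mice lay above all others and Lac7 mice below all others, while the mice of P18 and Inv3 overlapped. As shares of all miRNA reads, the means were 8.23% for W10, 5.10% for P18, 1.98% for Lac7 and 4.89% for Inv3. Within libraries it ranked between 3 and 5 at W10 and between 11 and 15 at Lac7.

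miR-199a-5p is the other arm of the Mir199a-1 and Mir199a-2 hairpins. It was at 4897 ± 602 RPM at W10, 2889.9 ± 432 at P18, then 1385 ± 139 at Lac7 and 3173 ± 827 at Inv3 (mean ± SD, n = 6 at each stage). W10 mice ranged from 4289 to 5867 RPM (median 4793 RPM) and Lac7 mice from 1163 to 1582 RPM (median 1383 RPM). Between them lay P18 with 2436 to 3494 RPM (median 2874 RPM) and Inv3 with 2487 to 4599.6 RPM (median 2884 RPM). Lac7 mice again lay below every other mouse, and the highest Inv3 mouse, number 1, reached into the W10 range.

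miR-199b-5p, assigned to Mir199b alone, had 580 to 1589 RPM at W10 (median 889.6 RPM). It was at 148 to 376 RPM at P18 (median 209 RPM) and at 66.0 to 206 RPM at Lac7 (median 113 RPM). At Inv3 it had 308 to 492 RPM (median 377 RPM). Unlike the other members, its P18 and Lac7 mice overlapped, so that most of its fall lay between W10 and P18. Its SD was 37.7% of the mean at W10, 35.7% at P18 and 40.8% at Lac7, where counting error alone gives 3.42%, 7.03% and 11.3%. At Inv3 it was 21.2%, below the 26.1% of miR-199a-5p at that stage.

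miR-214-3p had 603 to 1980 RPM at W10 (median 1028 RPM), 405 to 589 RPM at P18 (median 510.1 RPM) and 139.7 to 183 RPM at Lac7 (median 169 RPM). At Inv3 the mice fell apart into 816 and 770 RPM for mice 1 and 2 and 227 to 360.03 RPM for mice 3 to 6 (median of the 6, 342 RPM). Lac7 mice were below all others without overlap. Its SD at Inv3 was 56.9% of the mean, the widest of the 20 combinations of member and stage.

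miR-214-5p was the least abundant member, with 71.2 to 149.6 RPM at W10 (median 95.5 RPM) and 33.0 to 73.5 RPM at P18 (median 57.0 RPM). Lac7 mice had 22.8 to 27.0 RPM (median 24.1 RPM), which rests on 16 to 20 reads per library, and Inv3 mice had 43.8 to 108 RPM (median 57.0 RPM). Lac7 mice were the lowest without overlap. The SD at Lac7, 6.92% of the mean, was smaller than the 24.1% expected from counting error alone, so the narrow spread there is no measure of how alike the mice were.

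**Figure D1:**
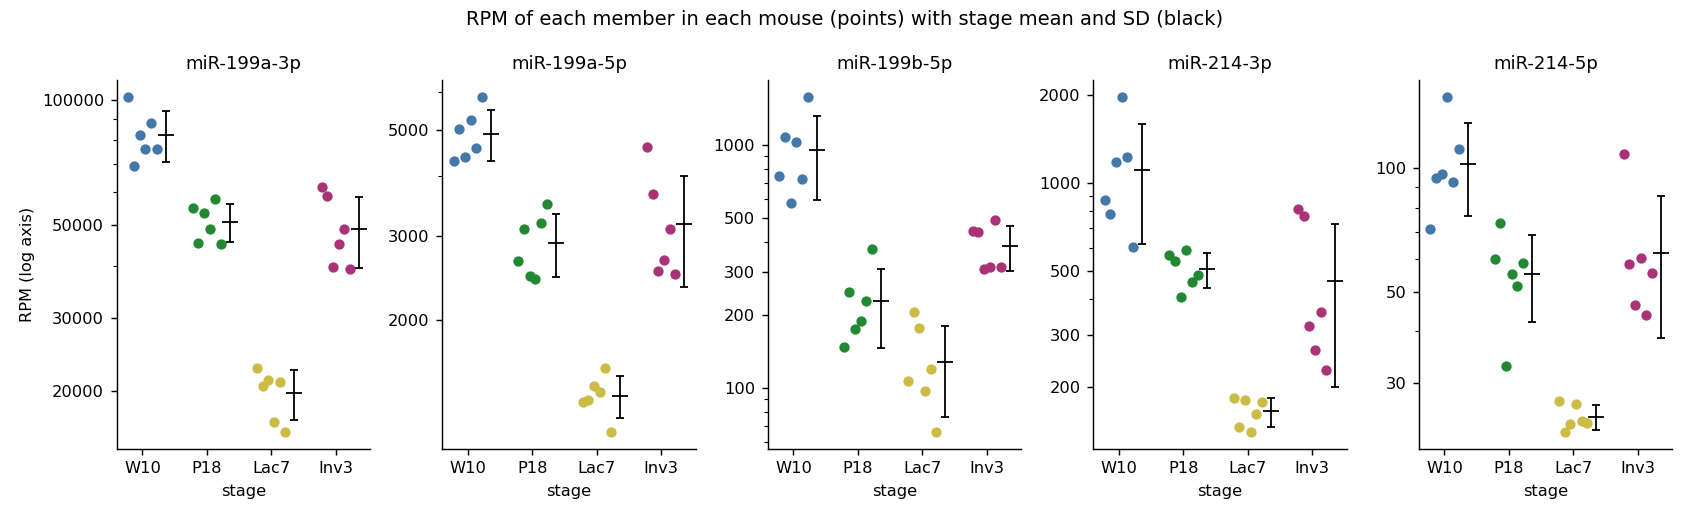
RPM of each member on a log axis (vertical) at each stage (horizontal), with 1 point per mouse in order of its number and the stage mean ± SD in black. In all 5 panels the Lac7 points have the lowest mean and the W10 points the highest, and for miR-199b-5p the Lac7 and P18 points overlap. At Inv3 mice 1 and 2 stand above the others for miR-214-3p.

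The first comparison asks what differed between the adult gland and the gland at the end of pregnancy. All 5 members were lower at P18 than at W10 with adjusted p under 0.05, and 2 of them, miR-199b-5p and miR-214-3p, were also past the fold threshold and called. In this comparison 20% of the 544 miRNAs were called lower. miR-199b-5p was 4.22-fold lower (log2 fold change -2.06 ± 0.26 SE, adjusted p = 2.43e-07), and only 14 of the 544 miRNAs fell further. For miR-214-3p the log2 fold change was -1.03 ± 0.27 (adjusted p = 0.00233). miR-199a-3p, miR-199a-5p and miR-214-5p differed by -0.69, -0.77 and -0.88 (adjusted p = 5.51e-05, 4.69e-05 and 0.00113), under the fold threshold. The mice did not overlap for 4 of the 5 members, miR-214-5p being the exception, and 16.9% of the 544 miRNAs were lower without overlap. The members' median was -0.88, against -0.32 for all miRNAs tested.

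The call of miR-214-3p sat at the threshold. Leaving out W10 mouse 3, 4 or 5 or P18 mouse 3 ended it, with log2 fold changes of -0.99, -0.84, -0.98 and -0.97, as did scaling by size factors (-0.78). W10 mouse 4 had the highest miR-214-3p (1980 RPM) and also the highest sum of the 3 skeletal muscle miRNAs miR-1a-3p, miR-133a-3p and miR-206-3p, 22907 RPM against 2308 to 14804 RPM in the other W10 mice. W10 mouse 3, with the lowest such sum (2308 RPM), had 1180 RPM of miR-214-3p, above the stage median of 1028 RPM. In W10 mice 1, 2, 5 and 7 the muscle sums were 10587, 11145, 14804 and 3536 RPM. Their miR-214-3p was at 877, 783, 1223 and 603 RPM, in the same order. W10 mouse 4 also had the highest sum of the red blood cell miRNAs named further on, 1953 RPM. The part of muscle or blood in the value was not tested.

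From P18 to Lac7, when milk secretion is established, 4 of the 5 members were called lower, against 22.6% of the 544 miRNAs. miR-214-3p was 3.08-fold lower (log2 fold change -1.61 ± 0.27, adjusted p = 1.47e-05) and miR-199a-3p 2.58-fold lower (-1.37 ± 0.12, adjusted p = 1.01e-09). miR-214-5p and miR-199a-5p were 2.24-fold and 2.09-fold lower (-1.10 ± 0.21 and -1.05 ± 0.14, adjusted p = 0.000108 and 4.46e-07). miR-199b-5p was not called, at -0.85 ± 0.26 (adjusted p = 0.00714). The mice of the 4 called members did not overlap, as was so for 19.1% of the 544 miRNAs in the same direction. The median of the members was -1.10, against -0.34 for all miRNAs tested. miR-199a-5p and miR-214-5p were close to the fold threshold and, under scaling by size factors, were at -0.75 and -0.80, so that 2 members were called. Without P18 mouse 6, miR-199a-5p was at -0.996 and not called, and without Lac7 mouse 2, miR-199b-5p was at -1.01 and was called.

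From Lac7 to Inv3 all 5 members were called higher, against 16.5% of the 544 miRNAs. The largest difference was that of miR-199b-5p, 3.00-fold higher (log2 fold change 1.65 ± 0.26, adjusted p = 6.24e-06). miR-214-3p was 2.80-fold higher (1.31 ± 0.27, adjusted p = 0.000199) and miR-214-5p 2.51-fold higher (1.23 ± 0.21, adjusted p = 2.74e-05). miR-199a-3p and miR-199a-5p were 2.47-fold and 2.29-fold higher (1.30 ± 0.12 and 1.16 ± 0.14, adjusted p = 3.5e-09 and 9.31e-08). The mice of the stages overlapped for none of the members, against 13.6% of the 544 miRNAs that were higher without overlap. Their median was 1.30, against 0.28 for all miRNAs tested, and each member stayed called when any 1 mouse was left out. Under scaling by size factors miR-199a-5p was at 0.99, just under the fold threshold, and the other 4 stayed called.

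Between the extremes, Lac7 and W10, all 5 members were called lower, and so were 39.7% of the 544 miRNAs. miR-199b-5p was 7.47-fold lower (log2 fold change -2.91 ± 0.26, adjusted p = 1.07e-10) and miR-214-3p 6.74-fold lower (-2.65 ± 0.27, adjusted p = 1.61e-09). miR-199a-3p was 4.16-fold lower (-2.06 ± 0.12, adjusted p = 2.09e-13), miR-214-5p 4.15-fold and miR-199a-5p 3.54-fold. No member had overlapping mice, and 29.4% of the 544 miRNAs were lower without overlap. The members' median was -2.06, against -0.66 for all miRNAs tested, and 27 and 40 of the 544 miRNAs fell further than miR-199b-5p and miR-214-3p. All 5 remained called under scaling by size factors, where the differences were -1.26 to -2.36.

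At Inv3 the members were below their W10 level in RPM. All 5 were lower with adjusted p under 0.05, and miR-199b-5p (log2 fold change -1.26 ± 0.26, adjusted p = 0.000293) and miR-214-3p (-1.34 ± 0.27, adjusted p = 0.000259) were called, against 19.5% of the 544 miRNAs called lower. miR-199a-3p, miR-199a-5p and miR-214-5p differed by -0.76, -0.65 and -0.75. The mice did not overlap for 2 members, miR-199a-3p and miR-199b-5p, against 12.1% of the 544 miRNAs lower without overlap. The members' median was -0.76, against -0.41 for all miRNAs tested, which was -0.10 with size factors. Scaling by size factors ended both calls (-0.88 for miR-199b-5p and -0.96 for miR-214-3p). It also took miR-199a-5p to -0.27 (adjusted p = 0.143) and miR-214-5p to -0.37 (adjusted p = 0.179). With edgeR, the adjusted p was 0.0565 for miR-199a-3p, 0.252 for miR-199a-5p and 0.253 for miR-214-5p. Whether these 3 members were lower at Inv3 thus depended on the scaling.

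Against P18, none of the members was called at Inv3, where 4.41% of the 544 miRNAs were called higher and 9.74% lower. With limma, 1 of the 5 had an adjusted p under 0.05, miR-199b-5p, which was 1.69-fold higher (log2 fold change 0.80 ± 0.26, adjusted p = 0.0191, mice overlapping). The others differed by -0.31 to 0.13. For miR-199a-3p the 95% confidence interval of the difference ran from -0.33 to 0.18, and for miR-199a-5p from -0.17 to 0.39. For miR-214-3p it ran from -0.85 to 0.24, so a fall close to 2-fold lies within it. The sign of the small difference of miR-199a-3p, -0.08, changed to 0.05 under scaling by size factors. In order of RPM, miR-199a-3p, miR-199a-5p, miR-214-3p and miR-214-5p were thus highest at W10 and lowest at Lac7, with P18 and Inv3 not told apart. For miR-199a-3p, miR-199a-5p and miR-214-5p, the place of W10 above Inv3 depended on the scaling. The means of miR-199b-5p were ordered W10, Inv3, P18 and Lac7, as were those of miR-199a-5p and miR-214-5p. For miR-199b-5p the lower steps of that order were not called. For Lac7 against P18 the adjusted p was 0.0727 with size factors and 0.0902 with DESeq2, and for Inv3 against P18 it was 0.0551 without P18 mouse 1 (limma).

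**Figure D2:**
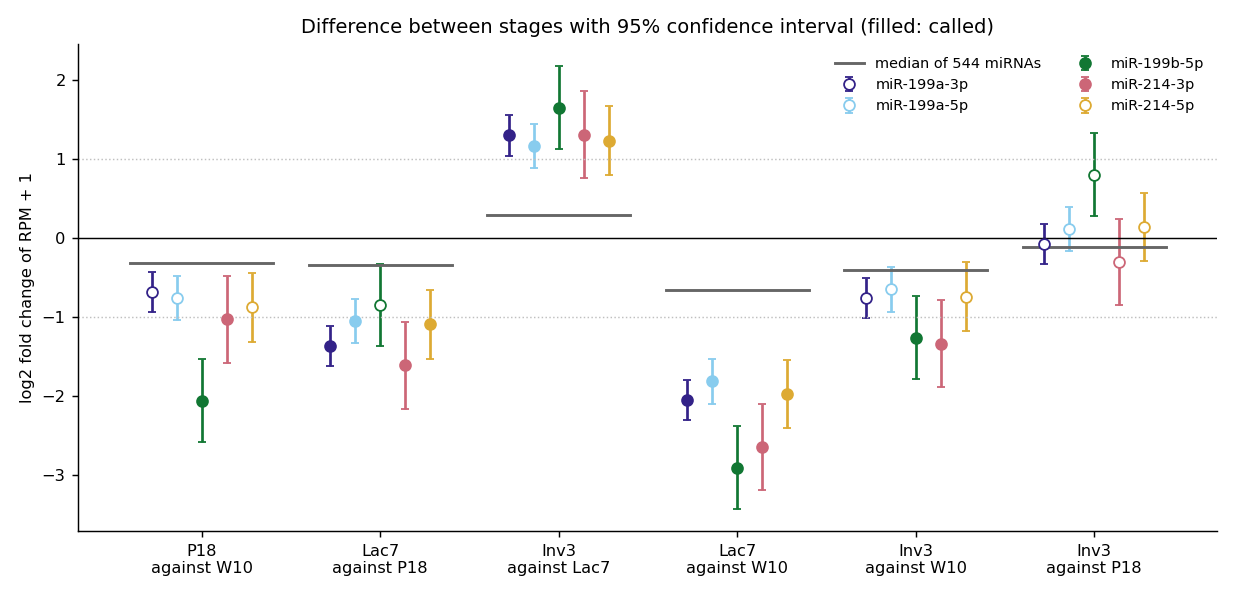
Log2 fold change of RPM + 1 (vertical) with its 95% confidence interval for each member in the 6 comparisons of stages (horizontal), filled where called, with the median of the 544 miRNAs as a grey bar and dotted lines at -1 and 1. All 5 members lie above 1 for Inv3 against Lac7 and below -1 for Lac7 against W10, and miR-199b-5p lies apart from the other 4 for P18 against W10.

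Ratios within a library do not depend on its total. They were compared between stages by two-sided exact permutation of 6 mice against 6 (924 splits, smallest p 0.00216), adjusted over 30 comparisons, 6 for each of 5 ratios. miR-199a-5p was 6.10 ± 1.38% of miR-199a-3p at W10, 5.75 ± 1.26% at P18, then 7.07 ± 0.84% at Lac7 and 6.44 ± 0.53% at Inv3 (n = 6 each). The 3p arm therefore had 11.96 to 23.7 times the reads of the 5p arm in every library. None of the 6 comparisons passed (0 of 6 with adjusted p under 0.05, 1 of 6 with an unadjusted p under 0.05). The nearest was Lac7 against P18, a difference of 0.32 on the log2 scale (exact permutation p = 0.0476, adjusted p = 0.102). miR-199a-3p can also hold reads of Mir199b, and miR-199a-5p is not assigned to it, so this ratio does not compare arms of the same precursors alone.

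miR-214-5p was 10.3 ± 4.34% of miR-214-3p at W10, 10.9 ± 1.96% at P18, then 15.2 ± 2.10% at Lac7 and 15.7 ± 6.47% at Inv3. For the hairpin of miR-214 the 3p arm was thus 4.10 to 13.2 times the 5p arm. Only Lac7 against P18 passed, with the 5p share higher at Lac7 by 0.52 on the log2 scale (exact permutation p = 0.00433, adjusted p = 0.013), although the mice overlapped (13.2 to 19.0% against 8.16 to 13.7%). The 16 to 20 reads of miR-214-5p at Lac7 limit the precision of this ratio.

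The 5p arms of miR-199b and miR-199a changed unequally. miR-199b-5p was 19.2 ± 4.85% of miR-199a-5p at W10 and 7.73 ± 1.71% at P18, with no overlap of mice (13.2 to 27.1% against 5.56 to 10.8%). This difference of -1.30 on the log2 scale reached the smallest p of the design (exact permutation p = 0.00216, adjusted p = 0.0108). At Lac7 the ratio was 9.23 ± 3.66% and at Inv3 12.4 ± 2.03%. Against W10, Lac7 differed by -1.09 and Inv3 by -0.61 on the log2 scale, and Inv3 was higher than P18 by 0.69, each with an adjusted p of 0.013 and overlapping mice. Lac7 against P18 and Inv3 against Lac7 did not pass (adjusted p = 0.517 and 0.143). Of the consecutive stages, only P18 and W10 thus differed in this ratio past the threshold.

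Between the precursors that share Dnm3os, miR-214-3p was 1.37 ± 0.66% of miR-199a-3p at W10, 1.01 ± 0.19% at P18, then 0.841 ± 0.139% at Lac7 and 0.892 ± 0.342% at Inv3. None of the 6 comparisons passed (0 of 6 with adjusted p under 0.05, 1 of 6 with an unadjusted p under 0.05), the nearest being Lac7 against W10 at -0.59 on the log2 scale (exact permutation p = 0.0368, adjusted p = 0.0849). Without W10 mouse 7, 1 of the 6 passed. miR-199a-3p also holds the reads of Mir199a-1 and Mir199b, so this ratio does not compare the Dnm3os precursors alone.

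miR-143-3p, the most abundant miRNA of the stroma list and known from smooth muscle and other mesenchymal cells, served as a reference. miR-199a-3p was 89.2 ± 11.5% of miR-143-3p at W10, 35.1 ± 4.19% at P18, then 14.3 ± 1.90% at Lac7 and 19.9 ± 3.33% at Inv3. All 6 comparisons passed. On the log2 scale the ratio differed by -1.34 for P18 against W10 and by -1.30 for Lac7 against P18, without overlap of mice (adjusted p = 0.0108 for both, from the smallest exact permutation p). It was higher at Inv3 than at Lac7 by 0.47 (adjusted p = 0.0177), with overlapping mice, and differed by -0.83 from P18 without overlap. At Inv3 miR-143-3p itself was at 246220 ± 29288 RPM, against 92349 ± 6872 RPM at W10, so these abundant mesenchymal miRNAs did not keep a constant proportion across the stages.

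**Figure D3:**
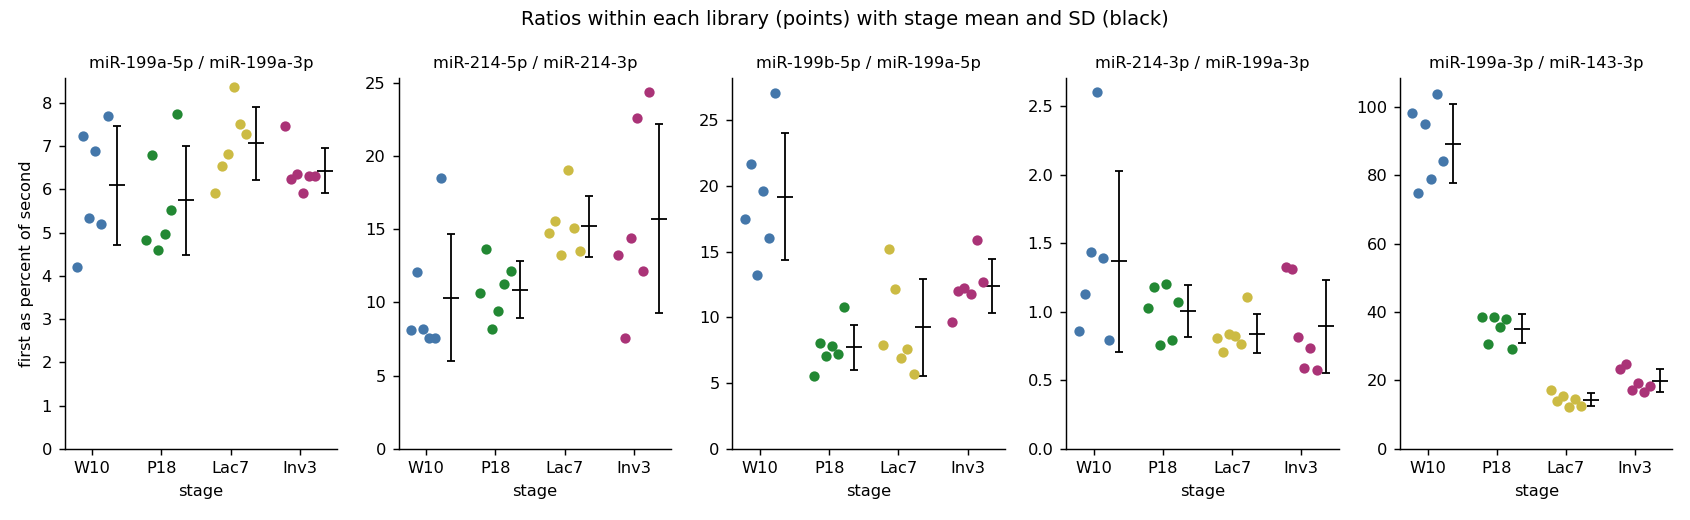
The first miRNA as a percent of the second within each library (vertical) at each stage (horizontal), with 1 point per mouse and the stage mean ± SD in black. The ratio of miR-199b-5p to miR-199a-5p separates W10 from P18, and the ratio of miR-199a-3p to miR-143-3p falls from 89.2% at W10 to 14.3% at Lac7.

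Mice of a stage were then compared with each other, on log2(RPM + 1) minus the stage mean, with permutation within stages and adjustment over 20 relations. miR-199a-5p and miR-199b-5p, arms from different chromosomes, varied together (Pearson's r = 0.65, permutation p = 6e-05, adjusted p = 0.0012, Spearman's rho = 0.71, permutation p = 0.00012, adjusted p = 0.0024, n = 24). Within stages, r was 0.94 at W10, 0.85 at P18, then 0.52 at Lac7 and 0.76 at Inv3, and without the 2 mice farthest from the median it was 0.73. It passed as well under scaling by size factors (r = 0.60, permutation, adjusted p = 0.0142) and without the Inv3 mice (r = 0.75, permutation, adjusted p = 0.0124). In the printed hairpins the sequences of these 5p arms are nearly the same, so a misread miR-199a-5p could be counted as miR-199b-5p. The part of such reads in this relation was not tested.

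For the arms of miR-199a the relation did not pass. miR-199a-3p and miR-199a-5p had r = 0.38 (permutation p = 0.132, adjusted p = 0.265, rho = 0.31, permutation p = 0.178, adjusted p = 0.364), with r = -0.70 at W10, -0.34 at P18, then 0.56 at Lac7 and 0.96 at Inv3. W10 mouse 1 had the highest miR-199a-3p of its stage, 101844 RPM, and the lowest miR-199a-5p, 4289 RPM. The arms of miR-214 had r = 0.54 (permutation p = 0.0249, adjusted p = 0.0995, rho = 0.46, permutation p = 0.0461, adjusted p = 0.154), which was 0.20 without the 2 outermost mice.

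Besides it, 2 relations passed for Pearson's r and 2 for Spearman's rho, 1 of them for both. miR-199a-5p with miR-214-5p had r = 0.62 (permutation p = 0.00681, adjusted p = 0.0454) but rho = 0.50 (permutation p = 0.0211, adjusted p = 0.106), and miR-199b-5p with miR-143-3p had r = 0.52 (permutation p = 0.0047, adjusted p = 0.0454) and rho = 0.61 (permutation p = 0.0027, adjusted p = 0.019). miR-199a-5p with miR-143-3p passed for rho alone (rho = 0.64, permutation p = 0.00285, adjusted p = 0.019, against r = 0.50, permutation p = 0.0578, adjusted p = 0.158). None of these 3 passed under scaling by size factors or without the Inv3 mice (permutation, adjusted p = 0.0963 to 0.204 for r and 0.107 to 0.403 for rho).

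At Inv3 the mice differed in how much of the epithelial miR-200 family they had. The summed RPM of miR-429-3p, miR-141-3p and the 3p arms of miR-200a, miR-200b and miR-200c was 23151 to 30330 in mice 1, 2 and 5 and 59866 to 78252 in mice 3, 4 and 6. miR-199a-3p was at 61683, 58659 and 49050 RPM in mice 1, 2 and 5 and at 45131, 39668 and 39372 RPM in mice 4, 3 and 6. miR-199b-5p was at 438 to 492 RPM in the first 3 mice and at 308 to 316 RPM in the others. miR-214-3p was higher in mice 1 and 2 and at 360.03 RPM in mouse 5, against 227 to 323 RPM in the others. miR-199a-5p was at 3096 to 4599.6 RPM in mice 1, 2 and 5 and at 2487 to 2671 RPM in the others. Mice 1, 2 and 5 were thus the highest for 4 members. They were not for miR-214-5p, at 108, 58.5 and 43.8 RPM in mice 1, 2 and 5 and 46.4 to 60.4 RPM in the others.

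Over the 24 mice none of the 5 members' relations to the miR-200 sum passed (permutation, adjusted p = 0.0662 to 0.949 for r and 0.327 to 0.888 for rho), and because the Inv3 mice form such sets their pooled r is not given. At some other stages the sign differed from that at Inv3. For miR-199a-3p r was 0.62 at Lac7 and -0.81 at P18, and for miR-199b-5p it was 0.95 at Lac7, against -0.95 and -0.93 at Inv3. miR-214-3p had r = 0.94 at W10 and 0.66 at P18, against -0.88 at Inv3. Over the 18 mice of W10, P18 and Lac7 it passed for r (r = 0.72, permutation p = 0.00241, adjusted p = 0.0241) and not for rho (0.61, permutation p = 0.0145, adjusted p = 0.107), and r was 0.44 without the 2 outermost mice. The part of epithelial RNA in the members' values was not tested.

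**Figure D4:**
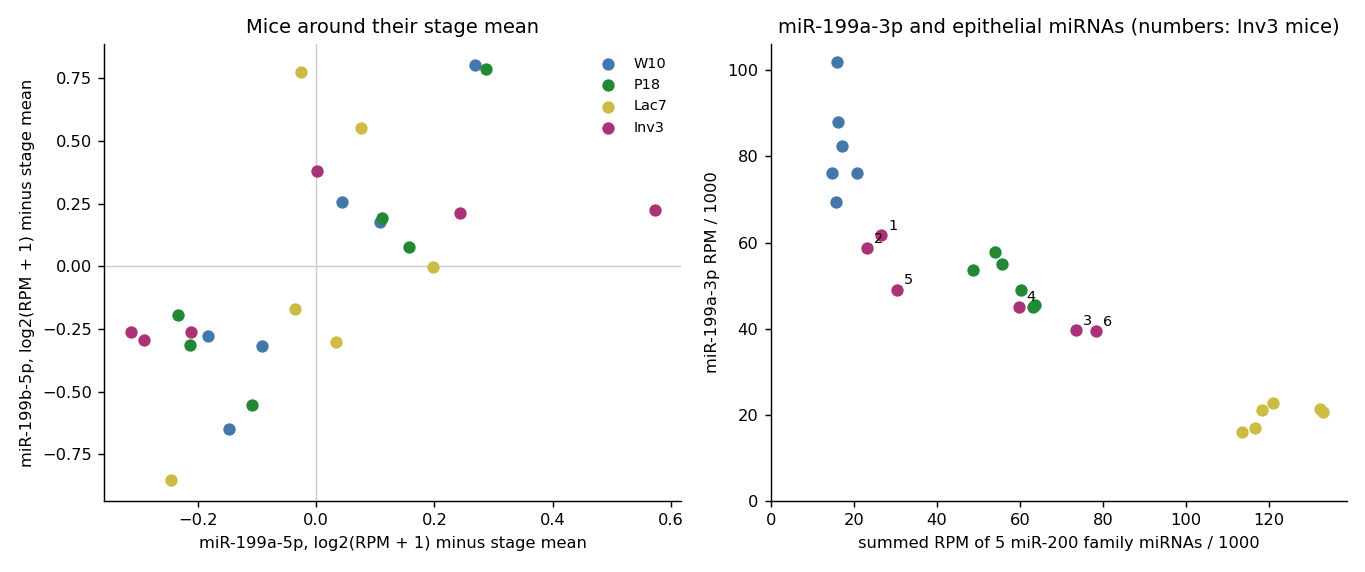
Left, miR-199b-5p against miR-199a-5p, both as log2(RPM + 1) minus the stage mean, with 1 point per mouse coloured by stage. Right, miR-199a-3p against the summed miR-200 family, both in units of 1e3 RPM. The numbered Inv3 mice run from mouse 1 (miR-199a-3p at 61683 RPM) down to mouse 6 (39372 RPM, with a miR-200 sum of 78252 RPM).

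Lists of miRNAs known from other cell types moved with the stages as well. The 11 epithelial miRNAs summed to 21719 to 26495 RPM at W10 and 58784 to 73321 RPM at P18. At Lac7 the sum was 128256 to 148244 RPM, and at Inv3 29598 to 86794 RPM, so it was highest where the members were lowest. Of the 11, 8 were called higher and 0 lower at P18 than at W10 (limma), and 7 were called higher and 1 lower at Lac7 than at P18, where 7.54% of the 544 miRNAs were called higher in each of these comparisons. At Inv3, 8 were called lower and 1 higher than at Lac7, against 10.3% of the 544 miRNAs called lower. The most abundant was miR-200a-3p, at 8547 ± 1613 RPM at W10 and 73975 ± 7342 RPM at Lac7, followed by miR-200b-3p and miR-200c-3p. No miRNA of the lists was at 0 in all 6 mice of a stage. The part of these cell types in the members' values was not tested.

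Of the 18 stroma miRNAs, from which the members were left out, 11 were called lower and 0 higher at Lac7 than at W10. Their median log2 fold change was -1.42, where 39.7% of the 544 miRNAs were called lower, with a median of -0.66. Calls went both ways for Inv3 against W10 (2 higher, 5 lower) and Inv3 against P18 (1 higher, 4 lower). Over the 544 miRNAs, these comparisons had 30 higher and 106 lower, and 24 higher and 53 lower. From P18 to Lac7, 9 of the 18 stroma miRNAs were called lower and 0 higher (limma, adjusted p under 0.05), with a median log2 fold change of -1.01. From Lac7 to Inv3, 7 were called higher and 0 lower, with a median of 0.82. Of the 544 miRNAs, 22.6% were called lower from P18 to Lac7 and 16.5% higher from Lac7 to Inv3, with medians of -0.34 and 0.28. The sum of the 18 stroma miRNAs was 120838 to 142801 RPM at W10, 138038 to 157346 RPM at Lac7 and 230404 to 320905 RPM at Inv3, which is mostly miR-143-3p. The second most abundant, miR-125b-5p, fell from 22587 ± 5921 RPM at W10 to 10386 ± 2251 RPM at P18 and 3085 ± 324 RPM at Lac7 and was at 11511 ± 5745 RPM at Inv3, so it was highest at W10 and lowest at Lac7, as the members were. miR-195a-5p, next in abundance, went from 6158 ± 714 RPM at W10 to 2989 ± 286 RPM at Lac7 (log2 fold change -1.04, limma).

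All 5 miRNAs of white blood cells were called higher at Inv3 than at Lac7 and lower at Lac7 than at W10, with sums of 25590 to 48957 RPM at W10, 7095 to 23550 RPM at P18, 3993 to 12161 RPM at Lac7 and 13122 to 23991 RPM at Inv3. The leading miRNAs were miR-142a-5p, miR-142a-3p and miR-223-3p, known from leukocytes. Of the 544 miRNAs, 16.5% were called higher at Inv3 than at Lac7 and 39.7% lower at Lac7 than at W10. The 2 endothelial miRNAs, miR-126a-3p and miR-126a-5p, were called in no comparison (0 of 2 with limma), with median log2 fold changes of -0.36 to 0.36. Of the 5 fat-linked miRNAs, led by miR-103-3p, miR-378a-3p and miR-365-3p, 3 were called lower at P18 than at W10 and 2 lower at Inv3 than at Lac7. Over the 544 miRNAs, 20% and 10.3% were called lower in these comparisons. miR-103-3p was not lower at P18 than at W10 (log2 fold change 0.12). The fat-linked sum was 32018.5 to 44909 RPM at W10, 35331 to 43277 RPM at P18, 47224 to 62067 RPM at Lac7 and 21144 to 30046 RPM at Inv3. The 3 skeletal muscle miRNAs summed to 2308 to 22907 RPM at W10 and 104 to 4843 RPM at the later stages. Of the red blood cell miRNAs miR-451a, miR-144-3p and miR-486a-5p, 2 were called lower at P18 than at W10, 1 higher at Lac7 than at P18 and 1 lower at Inv3 than at Lac7. Over the 544 miRNAs, 20% were called lower, 7.54% higher and 10.3% lower in these comparisons, in the same order. miR-122-5p, known from liver, was under 2 RPM in every W10 mouse and reached 2062 RPM in P18 mouse 6.

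Likeness to the members was measured as Pearson's r over the 24 libraries between log2(RPM + 1) of a miRNA and the mean of the 5 standardized members, among the 280 miRNAs whose mean reached 10 RPM. These values are descriptive, since all miRNAs share the libraries and their totals. The members correlated with each other at 0.76 (miR-199b-5p and miR-214-3p) to 0.95 (miR-199a-5p and miR-214-5p). The most alike were miR-497a-5p (r = 0.96), miR-23a-3p (0.96), miR-3964 (0.94), miR-363-3p (0.94) and miR-125b-2-3p (0.94). miR-23a-3p, the most abundant of them, was at 15641 ± 2012, 8814 ± 933, 4025 ± 333 and 12043 ± 2870 RPM at W10, P18, Lac7 and Inv3. miR-3964 and miR-363-3p had larger ratios between W10 and Lac7, going from 414 ± 105 to 25.2 ± 11.9 RPM and from 43.7 ± 21.9 to 1.90 ± 1.40 RPM.

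The least alike were miR-182-5p (r = -0.98), miR-429-3p (-0.95), let-7i-5p (-0.95), miR-200b-3p (-0.95) and miR-141-3p (-0.95). Of these, 4 are in the epithelial list, and let-7i-5p is not. miR-141-3p went from 393 ± 88.8 RPM at W10 to 6411 ± 381 RPM at Lac7 and was at 1158 ± 665 RPM at Inv3, the reverse order of stages. With values scaled by size factors, r was 0.89 to 0.94 for the 5 most alike and -0.96 to -0.94 for the 5 least alike.

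**Figure D5:**
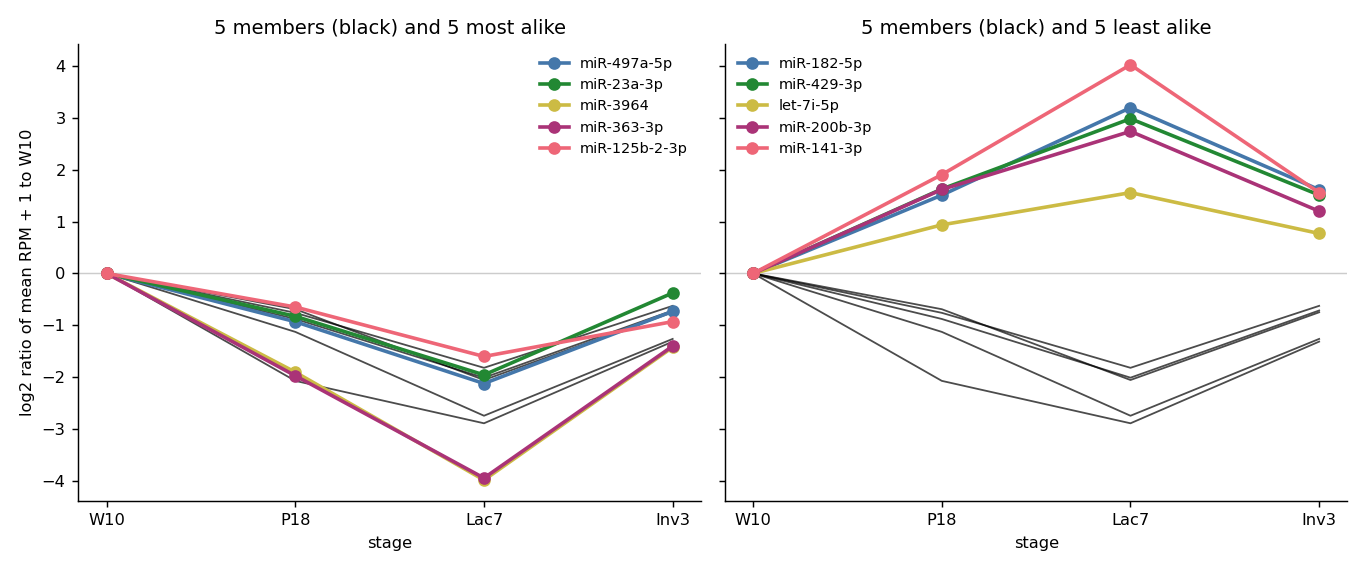
Log2 ratio of the stage mean of RPM + 1 to that of W10 (vertical) over the 4 stages (horizontal) for the 5 members in black, with the 5 most alike miRNAs in colour on the left and the 5 least alike on the right. The most alike reach their lowest level at Lac7 together with the members, and the least alike their highest.

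Together the 5 members took 8.94 ± 1.08% of all miRNA reads at W10, 5.47 ± 0.51% at P18, then 2.15 ± 0.28% at Lac7 and 5.30 ± 1.06% at Inv3. miR-199a-3p made up 90.1 to 94.6% of that sum in every library, so the sum followed 1 member.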

How the data were processed

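Per the labels and the study's methods, a QIAseq kit was used for the libraries, and reads were mapped by the authors to miRBase 22 using QuickMIRSeq. Trimmomatic 0.36, cutadapt and the build GRCm38 are named in the submitters' processing notes. The authors deposited RPM values that sum to 1e6 in every library. Values of a library were whole multiples of 1 step, which gave whole reads for 100% of the values above 0 (within 0.1 read), W10 mouse 7 included, whose step of 0.995 RPM is close to 1. A count of 0 allows 2.57 to 4.54 RPM (3 reads, counting error only).

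Testing was restricted to the 544 miRNAs that reached a mean of 1 RPM in any stage. limma 3.58.1 (trend) was run on log2(RPM + 1) in R 4.3.3, in 1 fit over 24 libraries, two-sided, with Benjamini-Hochberg adjustment. This pseudocount understates the changes of low miRNAs. Ratios were tested by exact permutation, and relations with 100000 permutations. As alternatives, pseudocounts of 0.1 and 10 were tried, and also no filter, a filter at 100 RPM, DESeq2 size factors, edgeR 4.0.16 and DESeq2 1.42.0 on the recovered reads, 12-library fits, a block for the mouse number and each mouse left out. Python 3.11.15 was used with scipy 1.17.1. Of 1009 names, 854 matched the RefSeq table. Named miRNAs are the members, listed miRNAs that share a seed or lie within 10 kb, the 5 most and least alike, and the 3 most abundant of each list. Members and lists were chosen with earlier results of these data known.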

Additional observations from a re-analysis of the deposited data

Results flagged for a closer look

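Of 40 groups of 6 mice (5 members and 5 ratios at 4 stages, with values that are not independent), 4 had a mouse apart from the others by Dixon's test, which flags about 1 in 20 groups by chance. miR-214-5p at Inv3 was 108 RPM in mouse 1, next to 60.4 RPM. The ratio of miR-199a-5p to miR-199a-3p at Inv3 was 7.46% in the same mouse, next to 6.37%. The ratio of miR-214-3p to miR-199a-3p was 2.60% in W10 mouse 4, next to 1.43%, and 1.11% in Lac7 mouse 6, next to 0.841%.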

How the results depend on the processing

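For P18 against W10, 2 members were called, and 1 with size factors, edgeR or DESeq2. For Lac7 against P18, 4 were called, 2 with each of these, and 3 with a pseudocount of 10 or over mice 1 to 5. For Inv3 against W10, 2 were called, and 0 with each of these, where miR-199b-5p was at -0.88, -0.89 and -0.91 (adjusted p = 0.00705, 0.00525 and 0.00147) and miR-214-3p at -0.96, -0.85 and -0.87. For Inv3 against P18, 0 were called, and 1 (miR-199b-5p, 1.01) over mice 1 to 5, with the replicate block and, as an alternative chosen after seeing the data, without it. The call therefore came with the smaller set of mice. Whether the mouse numbers pair the libraries is not stated in the sources. Over 188 miRNAs, with stage means subtracted, the correlation averaged -0.05 in 33 same-numbered pairs and 0.00 in 183 other pairs. These averages showed no likeness of same-numbered mice, but with so few mice they cannot exclude a shared litter or day. The block gave the counts that the same mice gave without it, which does not test pairing. Lac7 against W10 had 5 calls under every alternative run, and Inv3 against Lac7 too, except for 4 with size factors.

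The difference of miR-199a-3p between Inv3 and P18 (-0.08, not called) was 0.053, 0.042 and 0.069 with size factors, edgeR and DESeq2. Without Inv3 mouse 1, miR-199a-5p was at -0.0035 and miR-214-5p at -0.037, and without P18 mouse 3 miR-214-5p was at -0.0033, signs that had been positive. With 1 mouse left out they reached 0.17 and 0.22 at most. With 1 mouse left out at a time, 1 to 2 members were called for P18 against W10 and 3 to 5 for Lac7 against P18. Comparisons passed in 0 to 1 of 6 for the miR-199a arms, 1 to 2 for the miR-214 arms, 4 to 5 for miR-199b-5p to miR-199a-5p, 0 to 1 for miR-214-3p to miR-199a-3p and 6 for miR-199a-3p to miR-143-3p. A pseudocount of 10 gave 2 for the miR-214 arms. By Pearson's r, 3 of 20 relations passed, 1 with size factors and 2 without Inv3, of which that of miR-214-3p with the miR-200 family had not passed over all mice. The causes were not tested. The reads of miR-214-5p at Lac7, 16 to 20, set the lowest precision.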
